A study of Mus musculus with 25 samples.

Results

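The 37 genes described here encode the core machinery of autophagy and of the lysosome, and each was taken by its symbol from a deposited table of 4 histone marks. All 37 were found among the 24221 genes analysed. They fall into 6 groups by role: 13 lysosomal membrane proteins and hydrolases, 4 subunits of the proton pump, 3 transcription factors of the MiT/TFE family, 6 genes of initiation and nucleation, 5 of the conjugation system, and 6 of the Atg8 family and its cargo receptor. They were chosen by role and not by a cut on measured values, but with earlier results of these data known.

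The marks were measured by chromatin immunoprecipitation and sequencing in mouse fibroblasts that the labels call tdMEFs, an abbreviation the labels do not spell out, during M9-induced neural reprogramming. Cells at D8 and D4 had spent 8 and 4 days in the serum-free M9 medium under reduced oxygen, and D0 cells came from serum-containing fibroblast medium at higher oxygen. For D0 the labels of the series disagree: each sample is labelled tdMEFs, and the overall design names ciNSLC at that stage. The samples' own labels were followed. M9 holds CHIR99021, LDN193189, A83-01, Hh-Ag1.5, retinoic acid, SMER28, RG108, Parnate and bFGF, supplemented with N2 and B27 without vitamin A; SMER28 is known as a small-molecule enhancer of autophagy. Strain, genotype, sex and the number of animals or cultures are not stated in the labels for these samples, and each mark and stage has 1 library, so no p-value is given and every difference below describes these libraries.

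Autophagy encloses cytoplasm in a double membrane and delivers it to the lysosome, where acid hydrolases digest it. Ulk1 and Ulk2, kinases restrained by mTORC1 when nutrients are plentiful, start the process, the Becn1 complex makes the lipid signal for membrane growth, and the Atg7, Atg3 and Atg12-Atg5-Atg16l1 system attaches proteins of the Atg8 family to the membrane, where receptors such as Sqstm1 (p62) bring the cargo. The MiT/TFE factors Tfeb, Tfe3 and Mitf activate many lysosomal and autophagy genes through an E-box in their promoters, the CLEAR element. H3K4me3 marks active and poised promoters, H3K27ac active promoters and enhancers, H3K4me1 enhancers and the flanks of promoters, and H3K27me3 marks chromatin silenced by Polycomb.

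Values are RPM, reads-per-million of the library. The smallest library held 1582817 implied reads (H3K27ac at D0) and the deepest 34856379 (H3K4me3 at D8), the reads being worked out from the step between deposited values. Of these the shallow H3K27ac library at D0 limits the comparisons most, since 1 read is worth 0.632 RPM there and the 37 genes held 1 to 9 reads each, against medians of 43 and 39 reads at D4 and D8. The D0 libraries also differ from the later ones in sex-chromosome signal. H3K4me3 at Xist was 1.03, 41.1 and 47.9 RPM at D0, D4 and D8, and the mean of 5 Y-linked genes over that of autosomal genes was 1.29, 0.484 and 0.346 at the same stages, so cell make-up and stage cannot be told apart in a comparison with D0. All 10 fibroblast markers lay above the median gene in H3K4me3 at D0 and 9 did at D4 and D8, whereas all 10 macrophage markers, checked because macrophages are rich in lysosomes, lay below it at every stage, with summed levels of 12.7, 14.8 and 10.7 RPM at D0, D4 and D8. Of 6 melanocyte markers, checked because Mitf is known from that lineage, 1 (Pmel) lay above the median gene at each stage, and so did 1 of 5 endothelial markers (Kdr). Of 8 neural stem cell markers 2, 2 and 4 did at D0, D4 and D8.

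The promoters of these genes carry the E-box more often than promoters in general. RefSeq promoter windows (GRCm38.p6, 250 bases before to 50 after an annotated start) were at hand for 29 of the 37 genes, 36 windows in all. The core CACGTG was found in 11 windows, 30.6%, against 7.15% of all 32851 promoter windows, and the flanked form TCACGTGA, which contains the core, in 6 windows, 16.7%, against 0.974%. Both are palindromes, so a match counts for both strands. Among windows rich in CpG (observed over expected CpG above 0.6) the core was in 36.4% of 22 windows of these genes and in 11.3% of all 11756 such windows, so the difference was also present among CpG-rich promoters. Of 122 windows of other genes of these pathways, 18.9% held the core and 6.56% the flanked form, shares between those of the 37 genes and those of all promoters. The comparison is a description and not independent evidence, because the CLEAR element was defined on lysosomal genes such as these. The 5 windows below, cut to 150 bases before and 25 after the start and written 5′ to 3′ on the strand of the gene, show where the flanked form, in capitals, lies in 5 of the 6 genes that hold it.
Atp6v0d1 (chr8:105566040-105566214, minus strand): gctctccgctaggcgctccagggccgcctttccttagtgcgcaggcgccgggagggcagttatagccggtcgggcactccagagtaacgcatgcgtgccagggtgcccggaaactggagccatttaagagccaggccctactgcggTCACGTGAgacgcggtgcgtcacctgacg
Atp6v1a (chr16:44139235-44139409, minus strand): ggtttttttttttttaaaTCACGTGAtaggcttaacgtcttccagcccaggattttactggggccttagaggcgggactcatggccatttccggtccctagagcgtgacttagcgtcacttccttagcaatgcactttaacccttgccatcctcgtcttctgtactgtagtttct
Atg3 (chr16:45158679-45158853, plus strand): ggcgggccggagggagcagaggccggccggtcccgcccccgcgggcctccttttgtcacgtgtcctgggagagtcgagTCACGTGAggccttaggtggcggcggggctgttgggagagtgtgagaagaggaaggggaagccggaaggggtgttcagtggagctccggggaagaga
Ctsd (chr7:142387803-142387977, minus strand): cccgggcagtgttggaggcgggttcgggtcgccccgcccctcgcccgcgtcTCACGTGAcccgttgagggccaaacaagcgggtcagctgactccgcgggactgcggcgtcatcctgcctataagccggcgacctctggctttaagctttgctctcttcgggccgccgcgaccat
Mcoln1 (chr8:3500369-3500543, plus strand): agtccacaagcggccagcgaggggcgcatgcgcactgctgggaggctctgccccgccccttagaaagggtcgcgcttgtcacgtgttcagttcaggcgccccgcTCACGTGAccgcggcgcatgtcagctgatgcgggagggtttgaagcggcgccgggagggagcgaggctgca
The windows of Atp6v0d1, Atg3, Ctsd and Mcoln1 are built on the outermost annotated start of the gene, while that of Atp6v1a is built on a start 443 bp inside the gene. Of the 11 windows with the core, those of Ctsl (252 bp), Ctsa (901 bp) and Atg7 (27969 bp) also lie inside the gene, and a further Ctsa window, at its outermost start, has no E-box. In Atp6v0d1 the E-box spans the annotated start, while in Atp6v1a it begins at -132 bp from it. Atg3 and Mcoln1 hold a further core, in lower case, upstream of the capitals, and Lamp1, not printed, holds 4 cores between -61 and -15 bp. Ctsa is the other gene with the flanked form, which it holds in 2 places.

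**Figure D1:**
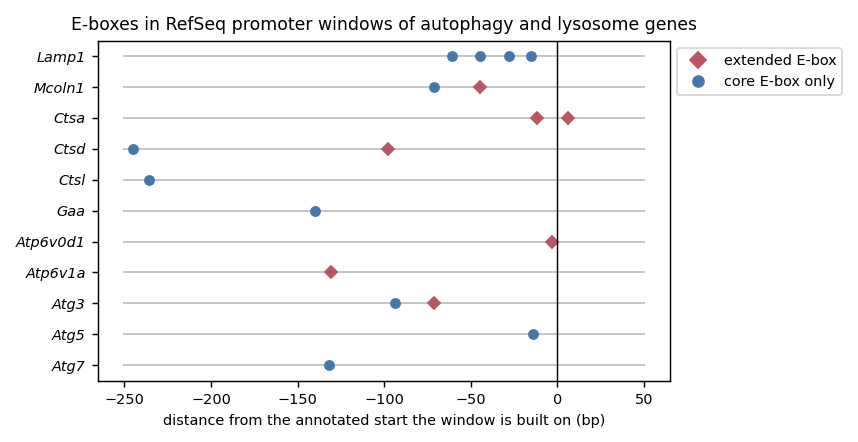
Position of each CACGTG E-box relative to the annotated start that the window is built on (x axis, bp; vertical line at 0) in the 11 genes whose promoter window, 250 bases before to 50 after that start, holds one. Diamonds mark the form flanked by T and A and circles the core alone; the 4 cores of Lamp1 lie close to its start, and those of Ctsd and Ctsl at -245 and -236 bp are the most distant.

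H3K4me3 was above that of the median gene at all 37 genes in all 3 libraries. The median percentile of the 37 among all genes was 73.9, 79.1 and 79.0 at D0, D4 and D8, and 18, 22 and 25 of them were in the top 25%. The region counted for a gene is not given and the values were not divided by length. Median H3K4me3 was higher in the 3898 longest genes, with 7.60, 12.6 and 27.1 RPM at D0, D4 and D8, than in the 3898 shortest, with 1.29 to 1.98 RPM. The same medians were 2.53, 2.30 and 2.92 RPM in the longest and 1.90, 1.83 and 1.91 RPM in the shortest genes for H3K27ac, 2.53, 3.06 and 3.73 against 1.83, 1.79 and 1.44 RPM for H3K4me1, and 1.96, 1.90 and 1.95 against 1.76, 1.79 and 1.83 RPM for H3K27me3. The part of gene length in percentiles and in the order of levels between genes was not tested.

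The most marked gene was Atp6v1a, the catalytic A subunit of the vacuolar proton pump, which acidifies the lysosome. Its H3K4me3 was 29.7 RPM at D0 (95% Poisson interval 26.8 to 32.9, counting error only in all intervals given), 65.6 RPM at D4 (56.4 to 75.9) and 106 RPM at D8 (102 to 109), at the 98.1st, 99.7th and 99.6th percentile. An annotated start of Naa50 lies 532 bp from the start on which the Atp6v1a window is built, so reads of the 2 genes cannot be told apart there. The other subunits, Atp6v0d1, Atp6v1h and Atp6v1b2, lay between 11.2 and 13.6 RPM at D0, between 20.9 and 23.1 at D4 and between 43.5 and 52.2 at D8.

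Among lysosomal membrane proteins and hydrolases, Npc2, which binds cholesterol inside the lysosome, was highest with 28.5, 57.3 and 69.5 RPM at D0, D4 and D8. An annotated start of Isca2 lies 158 bp from one of Npc2. Gaa, the glycogen-degrading acid glucosidase, was lowest with 4.12, 9.74 and 19.3 RPM at D0, D4 and D8. Lamp1, a major protein of the lysosomal membrane, stood between them with 15.6, 25.2 and 51.4 RPM at D0, D4 and D8, and the sialidase Neu1 was near Gaa with 4.99, 12.6 and 27.6 RPM. The order of the extremes was thus the same at D0, D4 and D8, with Npc2 first and Gaa last of the 13.

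The conjugation group had the highest median percentile of the 6 groups at each stage, 92.3, 91.9 and 88.6 at D0, D4 and D8. Atg12, the ubiquitin-like protein joined to Atg5, had 29.5, 41.8 and 78.6 RPM at D0, D4 and D8, and Atg3, the enzyme that passes Atg8 proteins to lipid, had 21.3, 46.9 and 76.1 RPM. An annotated start of Slc35a5 lies 156 bp from one of Atg3. Lowest of the 37 genes at D0 and D4, beside Gaa and Neu1, were the transcription factors Tfeb (5.62, 9.13 and 32.2 RPM) and Mitf (5.75, 9.98 and 15.3 RPM at the same stages), both with several annotated promoters; Tfe3, the third of the family, had 16.6, 32.3 and 42.0 RPM. The receptor Sqstm1 had 19.5, 31.0 and 72.7 RPM at D0, D4 and D8.

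The 6 genes of initiation and nucleation were close to each other in H3K4me3. At D0 they lay between 10.7 (Ulk1) and 20.6 RPM (Wipi2), at D4 between 15.5 (Becn1) and 28.5 RPM (Wipi2), and at D8 between 37.2 (Becn1) and 61.9 RPM (Wipi2). Wipi1 and Wipi2 bind the lipid made by the Becn1 complex, to which Uvrag also belongs. The 5 Atg8 genes spanned 10.3 (Map1lc3a) to 20.1 RPM (Gabarap) at D0, 15.5 to 30.6 RPM at D4 and 35.9 (Map1lc3a) to 53.9 RPM (Gabarapl1) at D8. Of the conjugation genes Atg7, the E1-like enzyme, was lowest, with 12.0, 19.1 and 36.5 RPM at D0, D4 and D8.

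**Figure D2:**
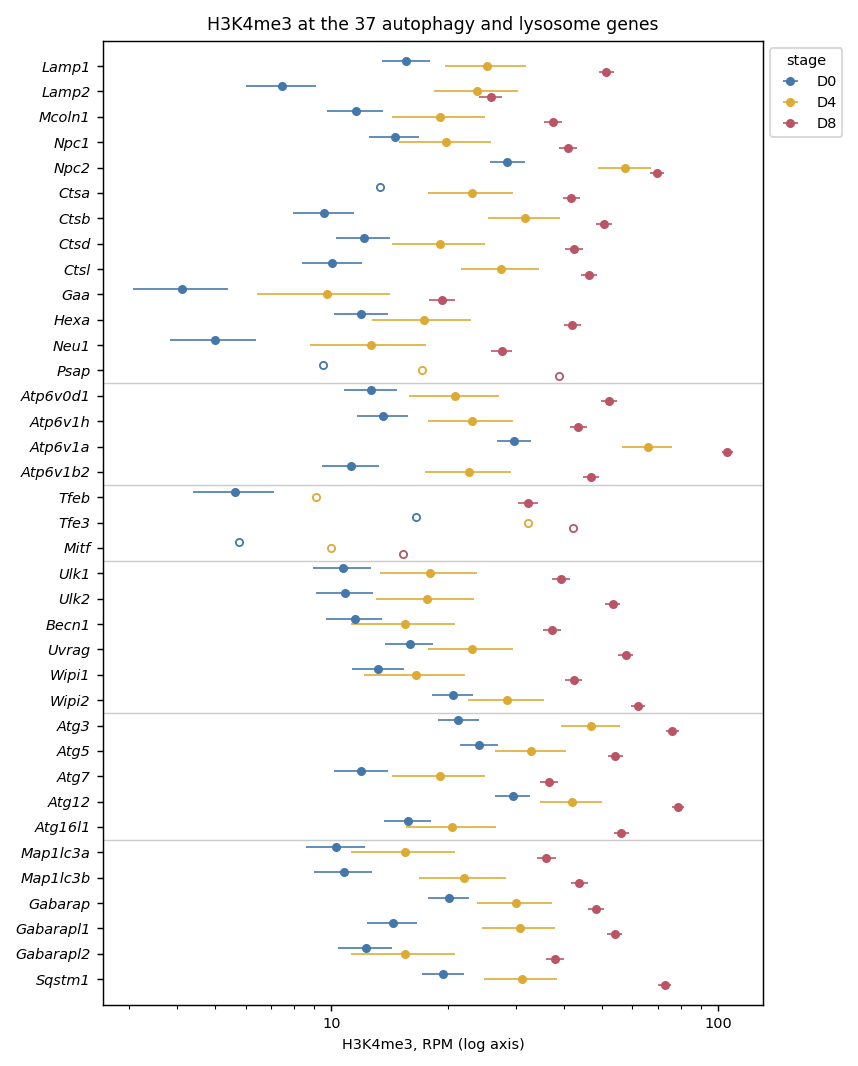
H3K4me3 of each of the 37 genes in RPM (log x axis) at D0, D4 and D8, 1 library each, with 95% Poisson intervals of the implied reads; open symbols are values that are not a whole number of reads and have no interval, and grey lines separate the 6 groups by role. Every gene lies lowest at D0 and highest at D8, as 54.9% of all genes do, low ones included, and Atp6v1a is highest at each stage.

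As deposited, H3K4me3 was in the order D0, D4, D8 from low to high at 37 of 37 genes, against 54.9% of all genes. That share is over all 24221 genes, low ones included, whereas the 37 all lay above the median gene. The libraries as a whole shift the same way: the genes of the table together held 18.8%, 28.5% and 53.9% of the reads of the D0, D4 and D8 libraries, and the median log2 change at D8 against D0 was 1.69 for the 37 and 1.51 for all compared genes. As deposited, 37 of the 37 were at least 2-fold higher at D8 than at D0, where 90.6% of all compared genes were, 8 at D4 than at D0 (13.6% of all) and 17 at D8 than at D4 (40.9% of all). Changes are therefore given after quantile normalization within the mark, as log2((a + c)/(b + c)) with c = 1.44 RPM for H3K4me3, for genes whose larger value reached the mark's median of 5.41 RPM; this understates changes of low genes. A gene was counted as changed from 2-fold upward, a log2 change of 1. With c added, this takes more than a 2-fold change of the normalized RPM itself, most of all at low levels.

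On that scale none of the 37 genes passed 2-fold in any comparison, although Ctsb did at D4 against D0 with a pseudocount divided by 4. The count was 0 of 37 at D8 against D0, where 4.67% of all compared genes were higher and 4.68% lower, 0 of 37 at D4 against D0 (4.38% and 4.14%), and 0 of 37 at D8 against D4 (0.777% and 0.639%). The median over the 37 was 0.16 at D8 against D0, 0.06 at D4 against D0 and 0.05 at D8 against D4, beside medians of all genes between -0.01 and 0.00. At D8 against D0, 28 of 37 lay above the median change of all genes. By role the median was 0.38 for the proton pump, with all 4 genes above 0, 0.21 for the Atg8 group, 0.16 for lysosomal membrane proteins and hydrolases, 0.12 for initiation and nucleation, with all 6 above 0, -0.04 for conjugation and -0.26 for the MiT/TFE factors.

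Among the genes nearest the threshold at D4 against D0 were cathepsins and Lamp2. Ctsb, a cysteine protease of the lysosome, had 50.6 RPM at D8 (48.2 to 53.0), 31.7 RPM at D4 (25.4 to 39.1) and 9.58 RPM at D0 (7.95 to 11.4), log2 changes of 0.70 at D8 and 0.96 at D4 against D0. Its percentile was 66.5, 90.9 and 84.8 at D0, D4 and D8. Ctsl, a related protease, had changes of 0.52 and 0.71 in the same comparisons, and the sialidase Neu1 of 0.60 and 0.56. Tfeb, the main activator of the lysosomal programme, was 0.67 at D8 against D0 and -0.01 at D4 against D0, so its difference lay in the D8 library. The initiating kinase Ulk2 was alike, with 53.3 RPM at D8 (50.9 to 55.8) against 10.8 RPM at D0 (9.11 to 12.8), a change of 0.62 and 0.06 at D4 against D0, whereas its paralogue Ulk1 was 0.20 and 0.10. At the other end Atg5, the conjugation partner of Atg12, was -0.38 at D8 against D0, Mitf -0.34, Gabarap -0.31 and Tfe3 -0.26.

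Lamp2, the receptor of chaperone-mediated autophagy at the lysosomal membrane, and Tfe3 are the only X-linked genes of the 37. Lamp2 had 25.8 RPM at D8 (24.1 to 27.5), 23.8 RPM at D4 (18.4 to 30.3) and 7.44 RPM at D0 (6.02 to 9.11), log2 changes of 0.88 at D4 against D0, 0.03 at D8 against D0 and -0.85 at D8 against D4. Its percentile was 81.8 at D4, above 60.8 at D0 and 61.3 at D8. The median change of X-linked genes was 0.05 at D4 against D0, -0.20 at D8 against D0 and -0.23 at D8 against D4, beside autosomal medians of -0.01, -0.01 and 0.00; the part of the sex-chromosome difference in the values of Lamp2 was not tested.

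**Figure D3:**
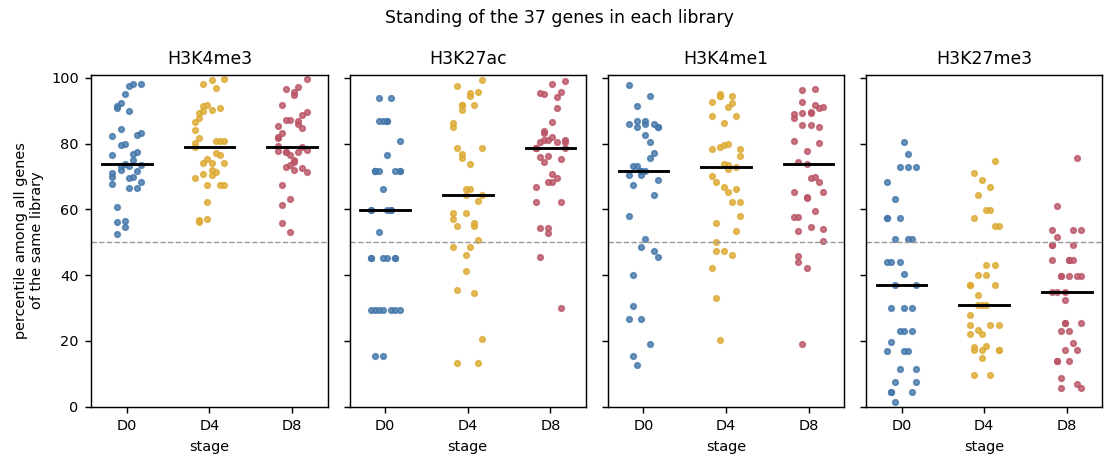
Percentile of each of the 37 genes among the 24221 genes of the same library (y axis), for the 4 marks at D0, D4 and D8; black bars are medians and the dashed line is the median gene. H3K4me3 lies above the line for all 37 genes, the H3K27ac medians are 59.7, 64.4 and 78.8 at D0, D4 and D8, and H3K27me3 lies mostly below the line.

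H3K27ac, the mark of active promoters and enhancers, stood higher at D8 in these genes than in the median gene. The median percentile of the 37 was 59.7, 64.4 and 78.8 at D0, D4 and D8, and 22, 28 and 35 of the 37 lay above the median gene. The 10 macrophage markers, whose part in this was not tested, had a median percentile of 59.7, 28.3 and 36.9 in the same libraries, with 6, 3 and 2 of 10 above the median gene and summed levels of 24.4, 17.6 and 20.3 RPM. The neural stem cell markers had 45.1, 20.6 and 66.8 and the fibroblast markers 97.2, 98.4 and 96.1. The 129 other genes of these pathways, described below, had 59.7, 72.6 and 73.2, so a rise from D0 was not particular to the 37. The 2 of the 37 not above the median gene at D8 were Atg16l1, at the 30.0th percentile, and Gaa, at the 45.4th. At D8 deposited values were above those at D4 for 36 of 37 genes, against 71.7% of all genes, and Atg16l1 was the exception. They were above those at D0 for 34, against 67.6%. These shares are over all genes, low ones included, and deposited H3K27ac also rose in the libraries as a whole. The median log2 change of all compared genes as deposited was 0.35 at D8 against D0 and 0.39 at D8 against D4. Counting error is wide at D0: Gaa and Gabarapl2 rest on 1 read each there. The median gene of that library held 3 reads. A gene with 3 reads was at the 45.1st percentile and 1 with 4 reads at the 59.7th, so 1 read decided on which side of the median gene it lay.

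**Figure D4:**
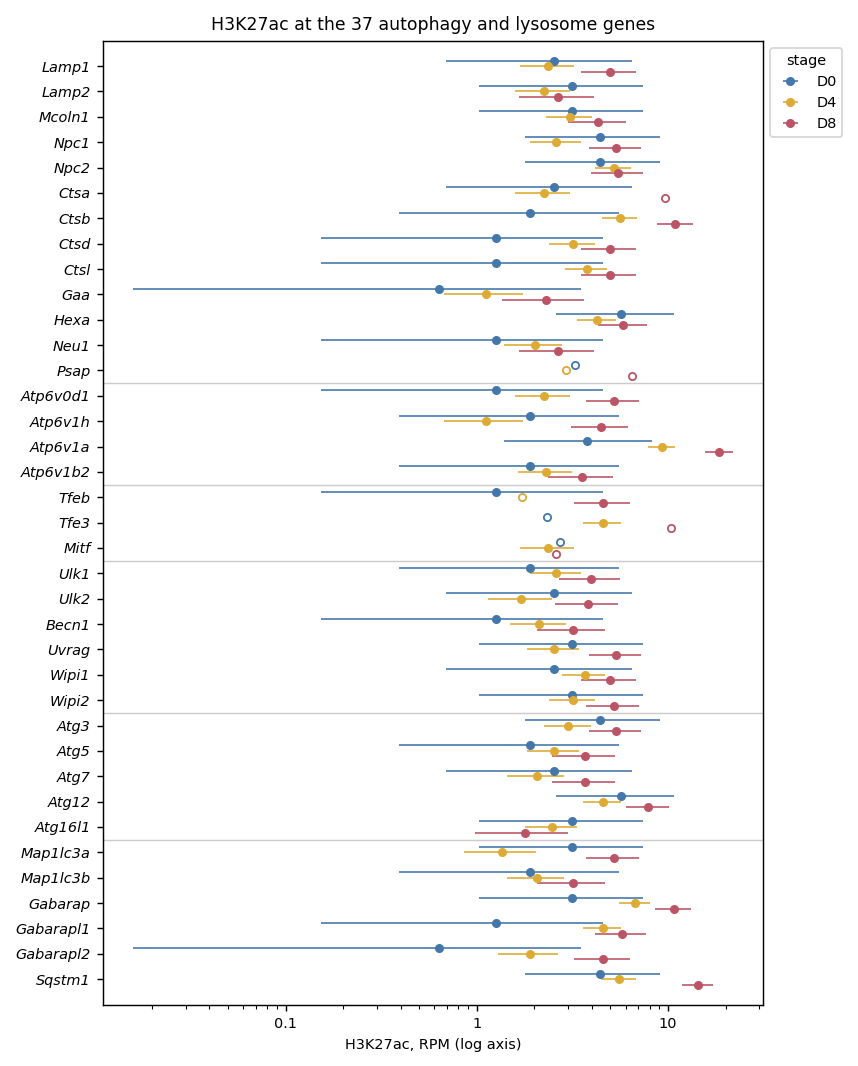
H3K27ac of each of the 37 genes in RPM (log x axis) at D0, D4 and D8, 1 library each, with 95% Poisson intervals of the implied reads; open symbols have no interval because the value is not a whole number of reads. The D0 intervals, from 1 to 9 reads per gene, overlap those of D8 for most genes, while Atp6v1a, Ctsb, Gabarap and Sqstm1 at D8 lie above their D0 intervals.

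After quantile normalization (c = 1.53 RPM, filter 2.18 RPM), 3 of 36 compared genes were at least 2-fold higher at D8 than at D0 and 0 lower, where 7.25% of all compared genes were higher and 7.05% lower; 3 of 36 is 8.33%, close to the share of all genes. The median change was 0.39, beside 0.01 for all genes, and 28 of 36 lay above the median of all genes. The part of the shallow D0 library in this shift was not tested. The 3 genes were Ctsb (1.36), Atp6v1a (1.29) and Tfe3 (1.18). Ctsa (1.00), a serine carboxypeptidase that protects Neu1, and Gabarapl2 (1.00) lay just below the threshold before rounding. As deposited the count was 12 of 37, where 19.9% of all genes were higher and 2.32% lower; it was 8 of 37 (9.82% of all higher) after centring deposited values on the median change of all genes, and 11 of 36 (14.9% of all higher) with a pseudocount divided by 4.

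Ctsb had 10.9 RPM at D8 (8.75 to 13.5), 5.61 RPM at D4 (4.54 to 6.86) and 1.90 RPM at D0 (0.391 to 5.54, 3 reads). Atp6v1a had 18.6 RPM at D8 (15.7 to 21.8), 9.27 RPM at D4 (7.88 to 10.8) and 3.79 RPM at D0 (1.39 to 8.25, 6 reads). In both the D8 and D0 intervals were apart, and the ratio of deposited values at D8 over D0 was 5.77 for Ctsb (95% interval 1.91 to 28.5) and 4.90 for Atp6v1a (2.20 to 13.6). Tfe3, an activator of lysosomal genes, had 10.3, 4.55 and 2.32 RPM at D8, D4 and D0. X-linked genes as a whole had a median change of 0.28 at D8 against D0 and 9.92% of them were at least 2-fold higher, beside 0.01 and 7.22% for autosomal genes; the part of this in the value of Tfe3 was not tested. Without Lamp2 and Tfe3 the median of the remaining genes was 0.39 and 2 were called.

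The Atg8 family and its receptor had the highest median H3K27ac change of the 6 groups at D8 against D0, 0.85, with all 6 above 0 and none called. Gabarap, which acts late in autophagosome closure and fusion, had 10.7 RPM at D8 (8.52 to 13.2), 6.73 RPM at D4 (5.55 to 8.08) and 3.16 RPM at D0 (1.03 to 7.37). Sqstm1 had 14.4 RPM at D8 (11.8 to 17.3), 5.55 RPM at D4 (4.48 to 6.79) and 4.42 RPM at D0 (1.78 to 9.11), a ratio at D8 over D4 of 2.59 (1.95 to 3.44). Gabarapl1 had a change of 0.94 and Map1lc3a and Map1lc3b, the LC3 proteins used to trace autophagosomes, of 0.21 and 0.25. The deposited D8 values of Gabarap and Sqstm1 lay outside the intervals of both earlier stages. These intervals do not take out the rise of the libraries as a whole, and neither gene was called at D8 after normalization.

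The MiT/TFE factors had a median change of 0.74, from Tfe3 (1.18), Tfeb (0.74, 2 reads at D0) and Mitf (-0.22), so they did not move together. The proton pump had 0.69, with all 4 pump subunits above 0 and 1 called. Lysosomal membrane proteins and hydrolases had 0.35, initiation and nucleation 0.31 with all 6 above 0, and conjugation -0.18 with 2 of 5 above 0. The conjugation group, highest in H3K4me3, was thus the only group with a median below 0 in H3K27ac. Atg16l1, which places the conjugation enzyme on the growing membrane, was lowest of all with -0.66; it held 14 reads at D8, 42 at D4 and 5 at D0, and its ratio at D8 over D0 was 0.564 (0.192 to 2.00). The initiation and nucleation genes lay between 3.18 (Becn1) and 5.34 RPM (Uvrag) at D8, against 1.26 (Becn1) to 3.16 RPM (Uvrag and Wipi2) at D0. Hexa, a subunit of the hexosaminidase lost in Tay-Sachs disease, was -0.48, with 5.85 RPM at D8 and 5.69 RPM at D0.

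At D4 against D0, 5 of 30 compared genes were at least 2-fold higher in H3K27ac and 0 lower, 16.7%, where 7.74% of all compared genes were higher and 6.68% lower. They were Ctsb (1.35), Atp6v1a (1.33), Gabarapl1 (1.29), Gabarap (1.13) and Ctsl (1.06), and the median over the 30 was 0.14, beside -0.01 as deposited, where that of all genes was -0.09. With values as deposited the count was 3 (5.73% of all higher), and with the smaller pseudocount 7 were higher and 1 lower (15.3% and 15.0% of all). An annotated start of 1700101I11Rik lies 92 bp from one of Gabarapl1.

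At D8 against D4 the shallow D0 library enters only through the normalization, c and the filter. Here 2 of 36 genes were at least 2-fold higher and 0 lower, where 0.561% of all compared genes were higher and 0.533% lower. Map1lc3a (1.06) had 5.21 RPM at D8 (3.74 to 7.07) against 1.36 RPM at D4 (0.861 to 2.04), a ratio of 3.84 (2.25 to 6.70), but 3.16 RPM at D0, so the D4 library was the low one. Ctsa (1.04) had 9.6 RPM at D8 against 2.24 RPM at D4 (1.59 to 3.08) and 2.53 RPM at D0, and an annotated start of Neurl2 lies 177 bp from one of Ctsa. Atp6v1h, just below the threshold (1.00 after rounding), had 4.45 RPM at D8 against 1.12 RPM at D4. The median over the 36 was 0.16. As deposited 4 of 37 were called, where 7.0% of all genes were higher. The count was 1 (Ctsa) after centring, or with the D0 library left out of the normalization.

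**Figure D5:**
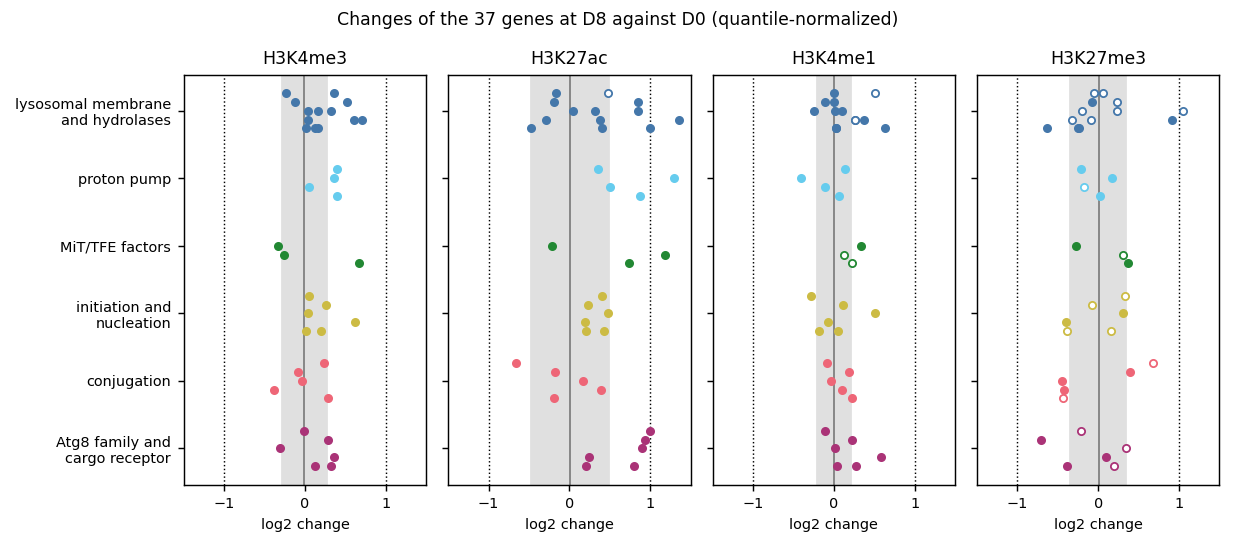
Quantile-normalized log2 change of each of the 37 genes at D8 against D0 (x axis) by role (rows) for the 4 marks; the grey band and line are the range between the quartiles and the median of all compared genes, dotted lines mark 2-fold, and open circles are genes below the filter on low values. In H3K27ac all 6 genes of the Atg8 group and all 4 of the proton pump lie above 0, and the 3 genes past the right dotted line are Ctsb, Atp6v1a and Tfe3.

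H3K4me1 showed no call in any comparison. The count was 0 of 33 genes at D8 against D0, where 0.0976% of all compared genes were higher and 0.156% lower, 0 of 33 at D4 against D0 (0.0987% and 0.0723%) and 0 of 35 at D8 against D4 (0.0% in both directions), so this mark had few calls anywhere. Median changes were 0.04, 0.08 and 0.01 in the same order (c = 1.63 RPM, filter 2.49 RPM). The median percentile of the 37 was 71.8, 72.9 and 73.8 at D0, D4 and D8. Atp6v0d1, a pump subunit of the membrane sector, had the highest level at D8, 7.09 RPM (6.16 to 8.11), against 4.91 at D4 and 3.79 at D0. Tfe3 had the lowest at every stage, 1.19, 1.52 and 1.24 RPM at D8, D4 and D0, at the 12.7th percentile at D0, the 20.2nd at D4 and the 19.1st at D8, although its H3K4me3 was in the top 25% at each stage. Atp6v1a, highest of the 37 in H3K4me3 and H3K27ac at D8, had the lowest H3K4me1 change at D8 against D0, -0.41.

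H3K27me3 was low at these genes. The median percentile was 36.9, 30.8 and 34.9 at D0, D4 and D8, and the median gene of the 37 held 7, 26 and 18 reads. The highest value at any stage was that of Atg7 at D0, 2.93 RPM from 15 reads. By contrast the 8 neural stem cell markers had a median percentile of 98.2, 99.0 and 98.7 in the same libraries, 7 of 8 being above the median gene. The filter (c = 1.30 RPM, filter 1.76 RPM) kept 18 of the 37 at D8 against D0, of which 0 were called, where 1.8% of all compared genes were higher and 1.78% lower. It kept 18 at D4 against D0, with 0 called, where 1.34% of all were higher and 1.06% lower. At D8 against D4 it kept 16, with 0 called, where 0.132% of all were higher and 0.0816% lower. Since c is close to the levels of these genes, calls were hard to reach and 0 calls says little. Lamp2, with a deposited ratio of 10.7 at D8 over D0 (1.74 to 440), had a log2 change of 0.91 and was not called. With a pseudocount divided by 4, 2 of 18 were higher (Lamp2 among them) and 1 lower at D4 against D0, where 6.40% of all genes were higher and 5.99% lower; 1 of 18 was higher and 1 lower at D8 against D0 (7.64% and 7.54%); and 4 of 16 were lower and 0 higher at D8 against D4 (2.37% and 2.45%). The 4 were Atp6v1h, Uvrag, Wipi2 and Gabarapl1. As deposited, Lamp2 alone was higher, at D8 against D0 (4.22% of all) and at D4 against D0 (2.27% of all).

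Lamp2, Atg16l1 and Gabarap held 1 H3K27me3 read each at D0 and Mcoln1 none. Lamp2 held 24 reads at D8, 35 at D4 and 1 at D0, log2 changes of 0.91 and 0.86 against D0, while X-linked genes as a whole had medians of 0.50 and 0.49 in these comparisons and autosomal genes of -0.01 in both. Mcoln1, a calcium channel of the lysosome also known as TRPML1, held 19 reads at D8, 26 at D4 and 0 at D0, at least 2.82-fold higher at D8 and at least 2.40-fold higher at D4 when D0 is set to 3 reads in that library, 0.587 RPM. It lay below the filter in every comparison, and its level at D8, 1.66 RPM, was at the 39.8th percentile. Becn1, the scaffold of the lipid kinase complex, had the highest level at D8, 2.53 RPM (1.69 to 3.63), against 1.76 RPM at D0 (0.805 to 3.34), and these intervals overlap.

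Of 129 other genes of the lysosome, the proton pump, autophagy, mitophagy and the mTORC1 and AMPK arm, 126 were compared in H3K4me3 at D8 against D0, and 4 were at least 2-fold higher and 1 lower, where 4.67% of all compared genes were higher and 4.68% lower. The 4 were Bnip3, a mitophagy receptor (1.8), Foxo3, a transcription factor that activates autophagy genes (1.29), Rragd, a Rag GTPase that signals amino acids to mTORC1 (1.18), and Ddit4, an inhibitor of mTORC1 (1.08). Bnip3 had 78.4 RPM at D8 (75.4 to 81.3) against 6.57 RPM at D0 (5.23 to 8.15). Foxo3 had 129 RPM at D8 against 18.2 RPM at D0, more than any of the 37 genes at D8. The lower one was Ctsk, a collagen-degrading cathepsin known from osteoclasts (-1.53), with 8.03 RPM at D8 against 9.03 RPM at D0 as deposited.

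In H3K27ac 114 of the 129 were compared at D8 against D0, and 11 were at least 2-fold higher, 9.65%, and 2 lower, with a median of 0.29, where 7.25% of all compared genes were higher and 7.05% lower. Ddit4 had 30.9 RPM at D8 (27.1 to 35.0) against 1.26 RPM at D0 (0.153 to 4.56), a log2 change of 2.83. Bnip3 had 10.8 RPM at D8 against 0 reads at D0, at least 5.70-fold higher, and Grn, which encodes the lysosomal protein progranulin, 3.81 RPM against 0 reads, at least 2.01-fold higher, with D0 set to 3 reads, 1.90 RPM. Counting error is left out of these folds. Rragc, another Rag GTPase, had 8.14 RPM at D8 against 0.632 RPM at D0, 1 read, a ratio of 12.9 (2.23 to 517). The 2 lower ones were Snap29, a SNARE of autophagosome fusion (-1.27, 3.18 RPM at D8 and 6.95 RPM at D0), and Nbr1, a cargo receptor (-1.10, 6.33 RPM and 9.0 RPM). By list, 5 of 25 compared genes of the mTORC1 and AMPK arm, 3 of 42 other lysosome genes, 1 of 11 other pump genes, 1 of 29 other autophagy genes and 1 of 7 mitophagy receptors were higher, each to be read against the same 7.25%. Bnip3 and Ddit4 were the genes named in both marks.

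At D8 against D0 the changes of genes with and without an E-box in the promoter window overlapped over most of their range in both promoter marks. In H3K27ac at D8 against D0 the median change was 0.48 over 11 genes with CACGTG, between -0.19 (Atg3) and 1.29 (Atp6v1a), and 0.35 over 18 genes without it, between -0.48 (Hexa) and 1.18 (Tfe3), with Gaa, below the filter, among the 11. In H3K4me3 the medians were 0.16 and 0.18. With and without the E-box, H3K4me3 medians were 0.08 and 0.06 at D4 against D0 and -0.08 and 0.12 at D8 against D4. In the same order, H3K27ac medians were 0.11 and 0.20 at D4 against D0 and 0.16 and 0.13 at D8 against D4. Unlike the medians above, those by E-box include genes below the filter, such as Gaa, Neu1 and Tfeb in H3K27ac at D4 against D0. Ctsb, the gene with the largest changes in both marks, has no window among the sequences used and stands in neither set.

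Levels of the 2 promoter marks went together across the 37 genes. The Spearman correlation between H3K4me3 and H3K27ac was 0.48, 0.65 and 0.50 at D0, D4 and D8, beside 0.47, 0.67 and 0.79 over all 24221 genes. Across genes of the same libraries this is a description, since genes are not independent replicates and at D0 the H3K27ac values rest on few reads.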

How the data were processed

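Chromatin immunoprecipitation libraries of 4 marks at D0, D4 and D8 were analysed, 12 of 25 labelled libraries. The deposited table, made by the authors, gives an RPM (reads-per-million) value for each gene and library, a unit read off the values: in each column 93.5% to 95.2% of them equal a whole number of reads to within 0.02. Too few were whole for a count model of all genes, so no count test was run over them. Per the submitters' processing notes, the tools were bedtools, Bowtie 1.1.0, SAMtools 0.1.19 and CASAVA 1.8.4, with build mm10. Which region was counted for a gene, and how duplicates were handled, is not stated there. The 8 value columns whose names match no label were not used, nor were the 5 input libraries. Symbols turned into dates (27) and genes at 0 throughout (205) were left out, leaving 24221 genes, 95.7% of them matched to RefSeq GRCm38.p6. None of the 37 shares all its values with another gene. Poisson intervals are given where values are whole reads, which excludes values of Ctsa, Psap, Tfeb, Tfe3 and Mitf. Intervals of ratios are exact conditional (Clopper-Pearson) intervals from the implied reads of both libraries. PCR reads are not independent molecules. Values were quantile-normalized over the 3 stages of a mark, and c is the 25th percentile of its positive values. The 37 genes, the lists of other genes and the tests were chosen with earlier results of these data known. Of the 129 other genes, those changed at D8 against D0 in H3K4me3 or H3K27ac were named, at most the 4 largest per mark and direction. Alternatives were deposited values, centring, a pseudocount divided by 4, no filter, a filter of 10 reads and, added after seeing the data, a filter on deposited values, autosomal genes alone and normalization over D4 and D8 alone. The code was tested on simulated data. Python 3.11.15, numpy 2.4.6, pandas 2.3.3 and scipy 1.17.1 were used.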

Additional observations from a re-analysis of the deposited data

How the results depend on the processing

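No paired analysis was possible because each mark and stage has 1 library. Of 88 counts recomputed under the alternatives 67 stayed within 1.5 times the value reported and 21 moved. Of 88 medians 81 stayed inside the 95% range of the median over genes and 7 did not. The range treats genes as independent and reflects the spread between genes, not the error of a difference between stages. That range is wide for these small medians: 30 of the 88 moved by over 1.5 times and 5 of these changed sign, H3K27ac at D4 against D0 (0.14 to -0.01 as deposited) and, with no filter or 10 reads, H3K27me3 at D4 against D0 (-0.09 to 0.08) and at D8 against D4 (-0.06 to 0.06). With values as deposited, H3K4me3 medians were 0.66, 1.69 and 0.99 at D4 against D0, D8 against D0 and D8 against D4, with counts of 8, 37 and 17, as the whole libraries shift; the H3K27ac medians at D8 against D0 and against D4 were 0.68 and 0.54, with counts of 3, 12 and 4 in the same comparisons; and H3K4me1 medians were 0.27, 0.56 and 0.31. With deposited or centred values 1 gene (Lamp2) passed in H3K27me3 at D4 and at D8 against D0. Centring gave 8 and 1 genes in H3K27ac at D8 against D0 and against D4. A pseudocount divided by 4 gave 1 gene (Ctsb) in H3K4me3 at D4 against D0, 8 and 11 in H3K27ac at D4 and D8 against D0, and 3 of 18, 2 of 18 and 4 of 16 in H3K27me3 at D4 against D0, D8 against D0 and D8 against D4, where the last 4 were all lower. With no filter, or 10 reads, 1 gene (Mcoln1) passed in H3K27me3 at D8 against D0. Normalizing D4 and D8 alone left 1 gene in H3K27ac. The alternatives added after seeing the data (a filter on deposited values, autosomal genes alone, D4 and D8 alone) moved no other count by over 1.5 times, but autosomal genes alone gave H3K27me3 medians of -0.23 at D4 against D0 and -0.16 at D8 against D4 and H3K4me1 medians of 0.05 and 0.00 in these comparisons, D4 and D8 alone an H3K4me1 median of 0.03, and the filter on deposited values H3K4me1 medians of 0.06 at D8 against D0 and 0.03 at D8 against D4. With 1 library per group no library could be left out. Depth limits H3K27ac at D0, with 1 to 9 reads per gene, and H3K27me3 at D0, with 0 to 15.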
